A study of Homo sapiens with 9 samples.

Results

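RUNX3 is a Runt-domain transcription factor that binds TGTGGT or TGCGGT in DNA together with its partner CBFB. It is silenced in many tumours, and in lung epithelium it is known for its part in the decision of a cell that has received growth signals to divide, to arrest or to die. The 52 genes described here are genes with a symbol that stood higher 16 h after wild-type RUNX3 was activated in H460 lung cancer cells. They were chosen by their measured values, out of 1145 genes of the deposited table that the study pairs with a symbol. The table holds 24331 genes in all. Nearly all of the named genes, and all 52 of the chosen ones, are on chromosome 1. The list of symbols could be read for genes of that chromosome and for 1 gene elsewhere. It does not hold every gene of chromosome 1. Genes of the reverse strand such as YOD1, which overlaps PFKFB2, are missing from it. How far that strand is covered was not counted. The 52 genes therefore stand for a slice of the response and not for the whole of it.

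The RNA came from 3 stable lines of NCI-H460, a large cell lung cancer line from a pleural effusion in which the endogenous RUNX3 gene is inactive. H460-Tam is the control line without an inserted RUNX3. H460-RUNX3WT carries wild-type RUNX3 fused to ERT2, a ligand-binding domain that keeps its partner inactive until 4-hydroxytamoxifen (4-OHT) is bound, and H460-RUNX3MT carries the same fusion with the K94/171R mutant. Serum was withdrawn from all cells for 24 h before 10% serum was given, and RNA was taken at 0, 8 and 16 h. The treatment notes name serum with or without 4-OHT at 1 μM, and the labels mark the 8 and 16 h libraries of all lines as treated with tamoxifen. 4-OHT is therefore taken as present in these libraries, which the values do not show. On that reading serum and the activation of RUNX3 started together, and the control line has the course of serum and 4-OHT alone. Each line at each time is 1 library, 9 in all, so no value below has a replicate error and no test was run. The labels do not say whether a line is 1 clone, and differences between lines may include differences between clones.

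Values are FPKM, the fragments counted on a gene scaled by the length of its transcript and by the size of the library. How the library size was set is not given in the sources used here. Changes are given as log2 ratios of the 8 or 16 h library to the 0 h library of the same line, after 0.05 was added to both FPKM values, and this pseudocount shrinks the ratios of genes with few reads. To be chosen, a gene needed a change of 1.5 or more at 16 h in H460-RUNX3WT that exceeded the change in H460-Tam by 1.5 or more, and FPKM of at least 1 in the higher H460-RUNX3WT library. Genes that reached FPKM 1 in a library of a line are called expressed in that line. Of the named genes 62 met these values. Of these, 10 well-studied genes such as ATF3, GADD45A and IL24 were left out by name, which leaves the 52. Of all genes of the table, 4.97% met the same values, and 1147 of those have no symbol here. H460-Tam and H460-RUNX3WT share a table. H460-RUNX3MT is in a table of 19869 genes that was normalized separately, so its values are compared with each other only. Of the 52 genes 44 were found there by their Ensembl identifier.

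The summed FPKM of a library was between 554359 and 641519 in 8 of the 9 libraries and 780952 at 16 h in H460-RUNX3WT, the library that the choice rests on. The median change over the genes expressed in that line was -0.0014 at 16 h. Over genes with FPKM of at least 1 in all libraries of a table, medians lay near 0 in each library. At 16 h in H460-RUNX3WT that median was 0.0041 against H460-Tam at 0 h. Such medians may have been set by the scaling, so they are no check on it. If the libraries were rescaled to the same FPKM sum, changes would be lower by 0.49 at 16 h and 0.18 at 8 h in H460-RUNX3WT and by 0.11 at 16 h in H460-Tam, and 27 of the 52 genes would still meet the values.

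RUNX3 itself has no symbol in the table of the wild-type line. In H460-RUNX3MT it was listed at FPKM 2.12, 0.712 and 2.11 at 0, 8 and 16 h, and ESR1, from which ERT2 derives, at 3.22, 2.04 and 3.61. Reads of the fusion and of the endogenous genes cannot be told apart in these values. CBFB stood at 44.6, 50.9 and 44.3. Markers of other cell types were near 0 in every library of H460-Tam and H460-RUNX3WT. The 5 leukocyte markers summed to FPKM 0.374 at most, the 3 endothelial markers to 0.0209 and the 4 fibroblast markers to 0.755, each at 16 h in H460-RUNX3WT. The most abundant among them were CD53 at 0.298, S1PR1 at 0.0209 and DDR2 at 0.745, and CD2, CD52, LCK, TIE1, VCAM1, PODN and PRRX1 were at 0 there. Of the 7 epithelial markers on chromosome 1, KIAA1522 was the most abundant with FPKM 6.59 to 9.29, and RAB25 was at 0 in all 6 libraries. The 7 summed to 12.2, 8.23 and 7.83 at 0, 8 and 16 h in H460-RUNX3WT and to 12.3, 12.2 and 13.9 in H460-Tam. CELSR2, the other one with FPKM of at least 1, went from 2.70 to 0.410 at 16 h in H460-RUNX3WT, and the median change of these 2 at 16 h was -1.48. Any part of this in the results was not tested. In H460-RUNX3MT, KRT8 reached 662, 698 and 569, while EPCAM was listed at 0 at 0 h and CDH1 at 0 at 8 and 16 h. In that table the 3 leukocyte markers summed to 0.0155 at most and the 3 fibroblast markers to 0.679, with COL1A1 at 0.590, and CDH5, the endothelial marker found, was at 0.

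The chosen genes had a median change of 2.2 at 16 h in H460-RUNX3WT, from 1.54 to 7.65. By the rule none can lie under 1.5, and 12.1% of all genes expressed in that line had a change of at least 1.5. Of the 52 genes 21 lay between 1.5 and 2, 15 between 2 and 3, and 16 at 3 or more. They started from different levels. At 0 h in H460-RUNX3WT 16 of them were under FPKM 1, 25 between 1 and 10, and 11 at 10 or more. Their FPKM summed to 446, 719 and 3469 at 0, 8 and 16 h in H460-RUNX3WT, against 433, 437 and 477 in H460-Tam, and CD55 alone made up 1805 of the last value in H460-RUNX3WT. As a share of all FPKM that is 0.0805% at 0 h and 0.444% at 16 h.

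**Figure D1:**
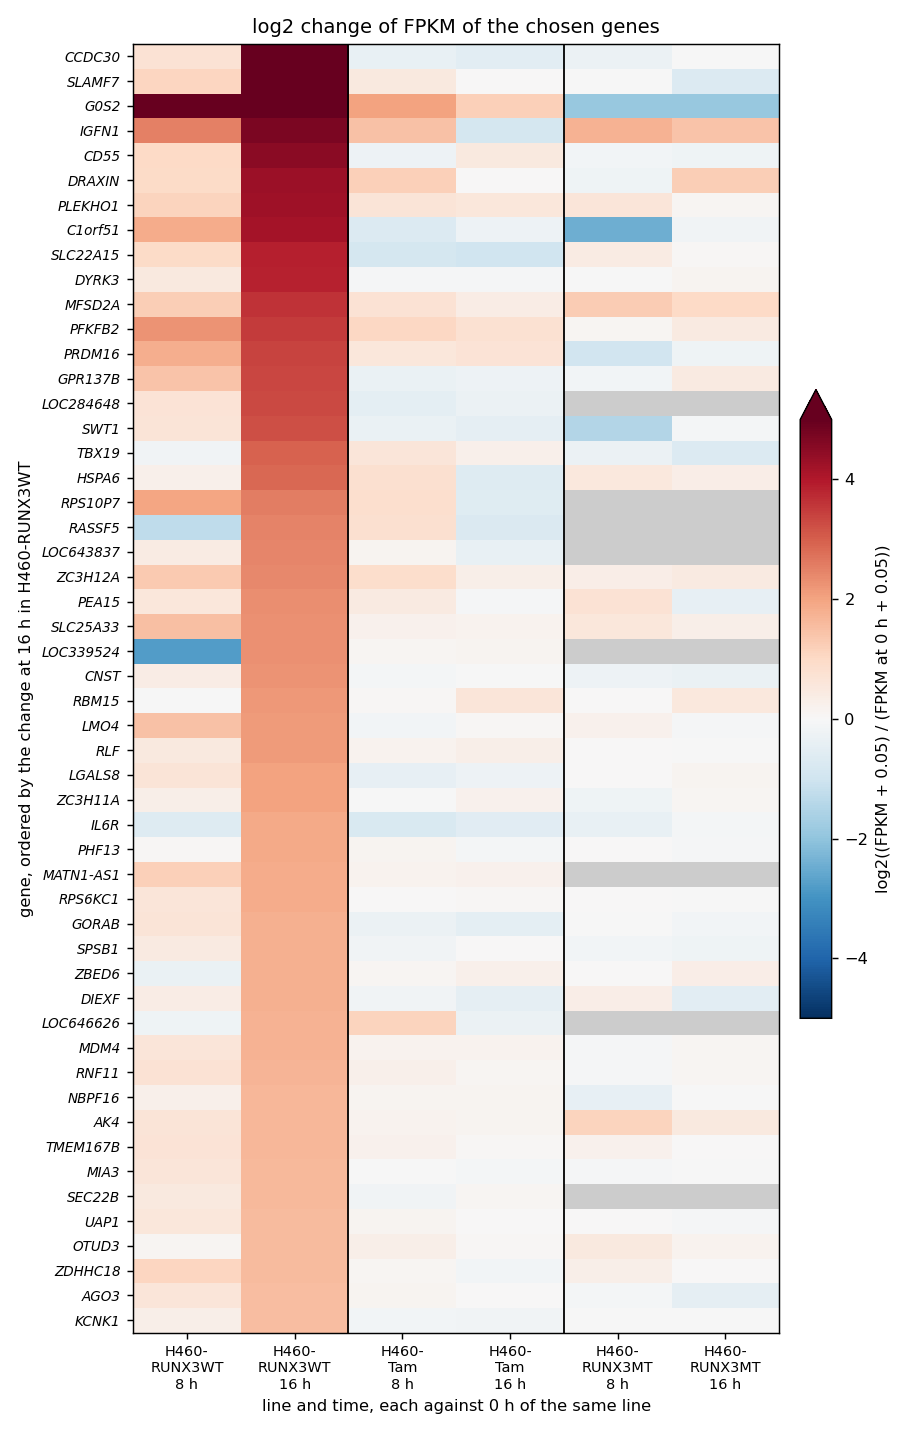
Log2 change of FPKM at 8 and 16 h against 0 h of the same line for the 52 genes (rows, ordered by the change at 16 h in H460-RUNX3WT) in H460-RUNX3WT, H460-Tam and H460-RUNX3MT. Red is higher than at 0 h, blue is lower, values above 5 have the darkest red, and grey marks the 8 genes not matched to the H460-RUNX3MT table. The 16 h column of H460-RUNX3WT is red throughout by the choice of genes.

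The heatmap of changes orders the genes from CCDC30 at 7.65 down to KCNK1 at 1.54. Its second column was fixed by the choice, and so was the upper limit of the H460-Tam column at 16 h. The changes in the 8 h columns and in those of H460-RUNX3MT were not used to choose the genes. The 8 h library of H460-RUNX3WT entered only the filter on FPKM. The 8 h and 16 h changes of a line share its 0 h library, so they are not independent of each other.

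The complement regulator CD55 was the most abundant of the chosen genes. CD55, or decay-accelerating factor, sits on the cell surface and limits complement activation there. It is listed at chr1:207494817-207534311 of hg19. It stood at FPKM 78.2, 156 and 1805 at 0, 8 and 16 h in H460-RUNX3WT, a change of 1.00 at 8 h and 4.53 at 16 h, or 23.1-fold. In H460-Tam it stood at 84.2, 70.9 and 119, and in H460-RUNX3MT at 123, 111 and 107. H460-RUNX3WT and H460-Tam thus began close to each other, and the 16 h library of H460-RUNX3WT lay far above the other 5 of that table. Of the 17 genes of the complement list, 3 had FPKM of at least 1 in H460-RUNX3WT and CD55 was the only one chosen.

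Of 44 listed transcription factors 25 had FPKM of at least 1 and 4 were chosen, PRDM16, TBX19, LMO4 and RLF, and ATF3 met the values and was left out by name. The share of 16% stands beside 8.84% of the named genes with FPKM of at least 1, 52 of 588. Counted in the same way it was 17.6% of the ubiquitin list, 16.7% of membrane traffic and 18.2% of the cytokine list. It was 8.33% of the small GTPase list, 5.88% of the matrix and adhesion list and 0 for the cornified envelope, ephrin and interferon lists. All of these list shares rest on 4 genes or fewer. The lists were written with earlier results of these data known, so a share above 8.84% is no test of a list. The 25 had a median change of 0.47 at 16 h, against -0.12 for the 588. PRDM16, a zinc finger factor of brown fat, was at FPKM 0.0972, 0.470 and 1.47 in H460-RUNX3WT, 0.183, 0.295 and 0.324 in H460-Tam and 0.113, 0.0340 and 0.0919 in H460-RUNX3MT. TBX19, a T-box factor of pituitary cells, was at 0.374, 0.321 and 3.22 in H460-RUNX3WT, so its difference was seen at 16 h only, and its values were 0.251, 0.408 and 0.307 in H460-Tam and 0.816, 0.660 and 0.482 in H460-RUNX3MT. LMO4, a LIM-only cofactor, had moved early, with 2.91, 8.23 and 13.0 in H460-RUNX3WT. It stood between 2.74 and 3.12 in H460-Tam and between 7.70 and 9.33 in H460-RUNX3MT. RLF, a zinc finger protein whose gene was first met in fusions with MYCL in lung cancer, went from 4.20 to 5.96 and 18.5, and it stood between 3.63 and 4.51 in H460-Tam and between 3.87 and 4.00 in H460-RUNX3MT. Among chosen genes on no list, C1orf51, a repressor of the circadian clock also called CIART, was at 0.0700, 0.386 and 2.12 in H460-RUNX3WT, at 0.347, 0.197 and 0.279 in H460-Tam and at 0.616, 0.0730 and 0.533 in H460-RUNX3MT. PHF13, a chromatin reader, stood at 3.71 and 3.86 at 0 and 8 h and at 13.9 at 16 h, and between 3.47 and 4.09 in H460-Tam.

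Of 20 listed kinases and phosphatases with FPKM of at least 1, DYRK3 and RPS6KC1 were chosen, or 10%, and the median change of the 20 was 0.59. DYRK3 is a dual-specificity kinase that dissolves stress granules and other condensates. Its FPKM was 7.65, 10.7 and 111 in H460-RUNX3WT, a change of 0.48 at 8 h and 3.86 at 16 h. In H460-Tam it was 7.19, 6.82 and 6.90, and in H460-RUNX3MT 6.40, 6.31 and 7.02. The 16 h library of H460-RUNX3WT stood apart from the other 5 of its table, and the H460-RUNX3MT libraries were close to each other. RPS6KC1, a kinase-like protein of the endosome, went from 13.4 to 20.5 and 48.5, while it lay between 11.6 and 12.1 in H460-Tam and between 10.7 and 10.9 in H460-RUNX3MT. PLEKHO1 and PEA15 were on no list and stand here by what is known of their proteins. PLEKHO1, a membrane-binding partner of casein kinase, was at 2.70, 5.84 and 51.3 in H460-RUNX3WT, 2.39, 3.75 and 3.56 in H460-Tam and 2.44, 3.70 and 2.64 in H460-RUNX3MT. PEA15, which holds ERK in the cytoplasm, was at 44.9, 66.3 and 227 in H460-RUNX3WT. It also stood higher at 8 h in the other lines, with 34.4, 46.7 and 32.9 in H460-Tam and 40.6, 67.7 and 30.5 in H460-RUNX3MT, but in both it was back below its 0 h value at 16 h. RASSF5, which binds active RAS and RAP proteins, was low throughout, with 0.256, 0.0754 and 1.64 in H460-RUNX3WT and 0.193, 0.370 and 0.0970 in H460-Tam. It was 1 of 12 listed regulators of small GTPases with FPKM of at least 1.

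Receptors, secreted proteins and their regulators included genes of cytokine signalling. IL6R, the chain of the interleukin-6 receptor that binds the cytokine, first stood lower and then higher in H460-RUNX3WT, with FPKM 8.79, 5.61 and 33.2. It was lower at 8 h in H460-Tam as well, with 6.96, 4.12 and 4.75, and stood at 10.7, 8.20 and 10.0 in H460-RUNX3MT. ZC3H12A, an endoribonuclease that degrades the mRNAs of inflammatory cytokines, stood at 2.79, 7.07 and 15.1 in H460-RUNX3WT. In H460-Tam it reached 6.56 at 8 h from 3.54 and stood at 4.36 at 16 h, so its 8 h values in these 2 lines were close. In H460-RUNX3MT it was at 3.98, 5.08 and 5.40. These were 2 of 11 genes of the cytokine list with FPKM of at least 1. IL24 of this list met the values and was left out by name. Of the 11, 5 had a change of -1.5 or less at 16 h in H460-RUNX3WT, against 73 of the 588 named genes. The median change of the 11 was 0.29. GPR137B, a membrane protein of the lysosome, was at 3.44, 9.41 and 35.0 in H460-RUNX3WT, between 3.28 and 4.10 in H460-Tam and at 10.1, 9.03 and 13.8 in H460-RUNX3MT. It was 1 of 7 receptors and RGS proteins with FPKM of at least 1. SLAMF7, a surface receptor best known from natural killer and plasma cells, was at 0.0443, 0.147 and 4.59 in H460-RUNX3WT, at 0.0207 or less in H460-Tam and at 0.0306 or less in H460-RUNX3MT. DRAXIN, a secreted axon guidance protein, was at 0.0343, 0.114 and 1.60 in H460-RUNX3WT, at 0.0644 or less in H460-Tam and at 0.145 or less in H460-RUNX3MT. LGALS8, a galectin that binds sugars on damaged vesicles and at the cell surface, was at 23.1, 36.3 and 93.8 in H460-RUNX3WT, at 18.6, 14.0 and 15.7 in H460-Tam and between 43.6 and 47.7 in H460-RUNX3MT. It was 1 of 17 genes of the matrix and adhesion list with FPKM of at least 1. These had a median change of -1.30, against -0.12 for the 588 named genes with FPKM of at least 1. CNST, which helps to bring connexins to the cell surface, was at 6.47 and 8.49 at 0 and 8 h in H460-RUNX3WT, with a change of 2.25 at 16 h, between 7.05 and 7.58 in H460-Tam and between 6.46 and 8.08 in H460-RUNX3MT. It was 1 of 6 junction genes with FPKM of at least 1.

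**Figure D2:**
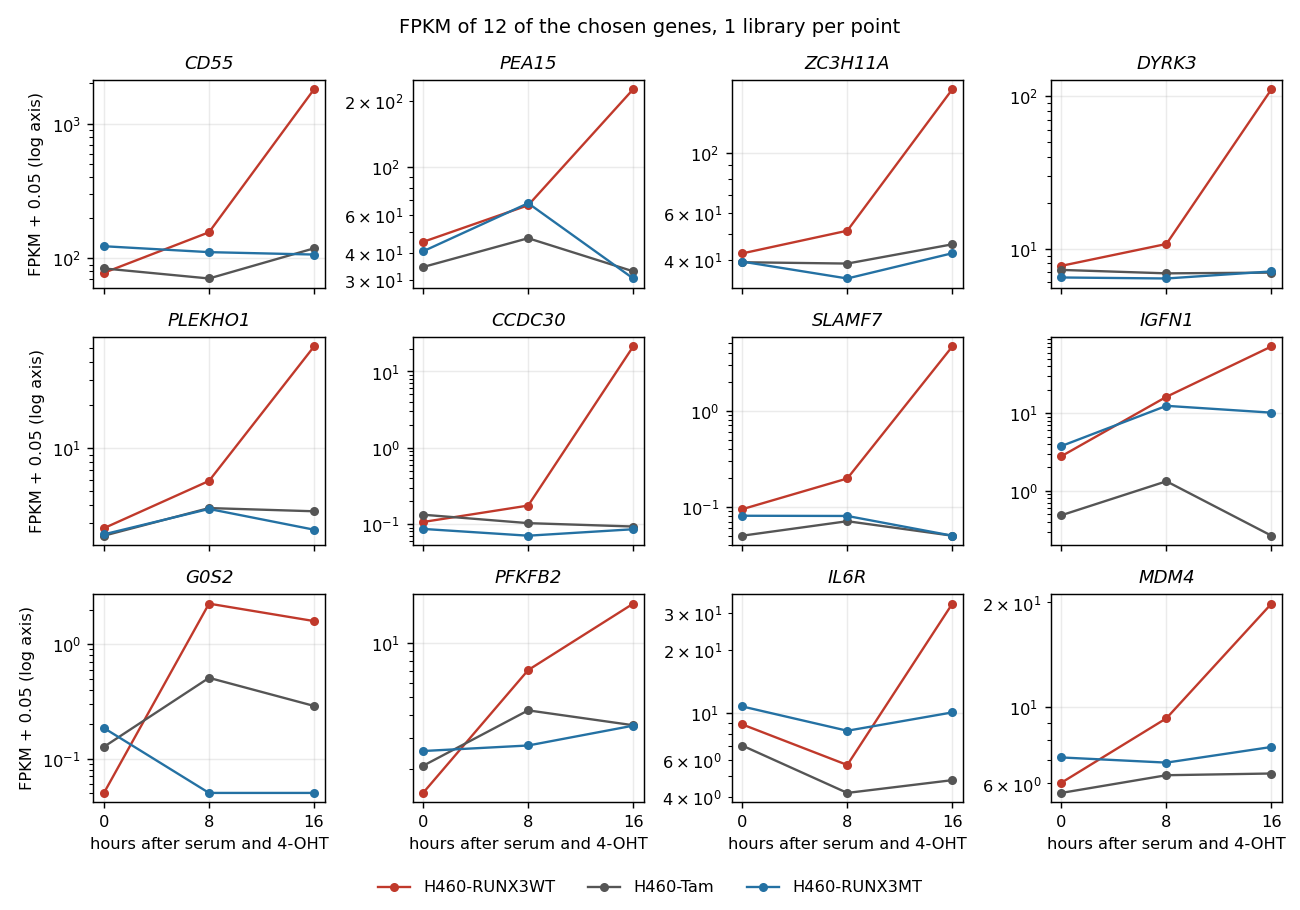
FPKM plus 0.05 (log axis) at 0, 8 and 16 h for 12 of the 52 genes in H460-RUNX3WT (red), H460-Tam (grey) and H460-RUNX3MT (blue), 1 library per point. Levels in H460-RUNX3MT come from a table normalized separately. In H460-RUNX3WT, CD55 goes from 78.2 to 1805, DYRK3 from 7.65 to 111 and MDM4 from 5.98 to 19.8.

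The plots of FPKM by time show different shapes in H460-RUNX3WT. CD55, DYRK3, CCDC30, SLAMF7 and ZC3H11A had most of their change between 8 and 16 h. PFKFB2 and IGFN1 stood clearly higher at 8 h and higher again at 16 h. IL6R stood lower at 8 h than at 0 h and higher at 16 h. G0S2 was the only chosen gene whose highest value was at 8 h.

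Metabolic enzymes and transporters gave 7 of the chosen genes. G0S2, an inhibitor of the lipase that breaks down stored triglyceride, had FPKM 2.21 at 8 h and 1.54 at 16 h in H460-RUNX3WT, where the 0 h library listed it at 0. PFKFB2, the bifunctional enzyme that sets the main activator of phosphofructokinase, was at 1.43, 7.04 and 16.5. It also stood higher after serum in H460-Tam, at 2.04, 4.19 and 3.46, and in H460-RUNX3MT it was at 2.48, 2.66 and 3.44. AK4, a mitochondrial adenylate kinase, was at 3.69, 5.74 and 11.8 in H460-RUNX3WT and between 5.99 and 6.70 in H460-Tam, so its 0 h value in H460-RUNX3WT was below all 3 of H460-Tam. These were 3 of 20 genes of the metabolism list with FPKM of at least 1, which had a median change of -0.12, and CTH of this list met the values and was left out by name. MFSD2A carries lysophospholipids across the plasma membrane. It was at 1.46, 3.48 and 18.5 in H460-RUNX3WT and at 1.43, 2.38 and 1.86 in H460-Tam. SLC25A33, the pyrimidine nucleotide carrier of mitochondria, was at 8.77, 24.7 and 42.5 in H460-RUNX3WT, between 10.6 and 12.4 in H460-Tam and between 1.97 and 2.94 in H460-RUNX3MT. SLC22A15, of the organic ion transporter family, was the lowest of the chosen genes at its highest, with 0.0242, 0.0937 and 1.04, and it was at 0.106, 0.0340 and 0.0275 in H460-Tam and 0.492, 0.669 and 0.519 in H460-RUNX3MT. KCNK1, a potassium channel, was at 3.95, 4.88 and 11.6 in H460-RUNX3WT. It stood between 6.58 and 7.35 in H460-Tam and between 6.84 and 6.92 in H460-RUNX3MT. Its 0 h value in H460-RUNX3WT, too, was below all 3 of H460-Tam. These were 4 of 23 transporters and channels with FPKM of at least 1. UAP1, which makes the sugar donor for glycosylation and was on no list, was at 25.7, 38.2 and 78.1 in H460-RUNX3WT and between 29.7 and 32.9 in H460-Tam.

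Lists of protein turnover, membrane traffic and growth control gave 7 chosen genes, with changes between 1.60 and 1.78 at 16 h. None of the 7 met the values once the libraries were rescaled to the same FPKM sum, so these 3 lists then held no chosen gene. Of 17 ubiquitin ligases and deubiquitinases with FPKM of at least 1, 3 were chosen, SPSB1, RNF11 and OTUD3, and their median change as a list was -0.21. SPSB1, which brings substrates to a ubiquitin ligase, was at FPKM 5.58, 7.72 and 19.2 in H460-RUNX3WT and between 4.62 and 5.34 in H460-Tam. RNF11, a RING protein, was at 13.3, 22.1 and 43.4 and between 12.2 and 14.4 in H460-Tam, and OTUD3, a deubiquitinase, was at 2.39, 2.54 and 7.33 and between 2.33 and 2.86 in H460-Tam. In H460-RUNX3MT these 3 lay between 4.24 and 4.89, 21.9 and 24.3, and 2.83 and 3.99. Of 18 genes of autophagy and membrane traffic, 3 were chosen. SEC22B, a SNARE protein between endoplasmic reticulum and Golgi, was at 53.6, 75.1 and 165 in H460-RUNX3WT and at 50.5, 45.1 and 53.9 in H460-Tam. MIA3, which loads collagen into transport carriers, was at 10.2, 15.7 and 31.5 and between 10.1 and 10.7 in H460-Tam, and GORAB, a golgin, was at 6.64, 10.3 and 22.9 and at 6.43, 5.26 and 4.59 in H460-Tam. In H460-RUNX3MT, MIA3 stayed between 15.1 and 15.6 and GORAB between 6.93 and 7.64. MDM4 binds p53 and restrains it, and H460 cells have wild-type p53. It was at 5.98, 9.21 and 19.8 in H460-RUNX3WT, 5.58, 6.29 and 6.36 in H460-Tam and 7.08, 6.84 and 7.60 in H460-RUNX3MT. It was the only chosen gene among 10 of the growth arrest list with FPKM of at least 1, and 3 genes of that list that met the values were left out by name. The list's median change of 1.68 includes them.

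**Figure D3:**
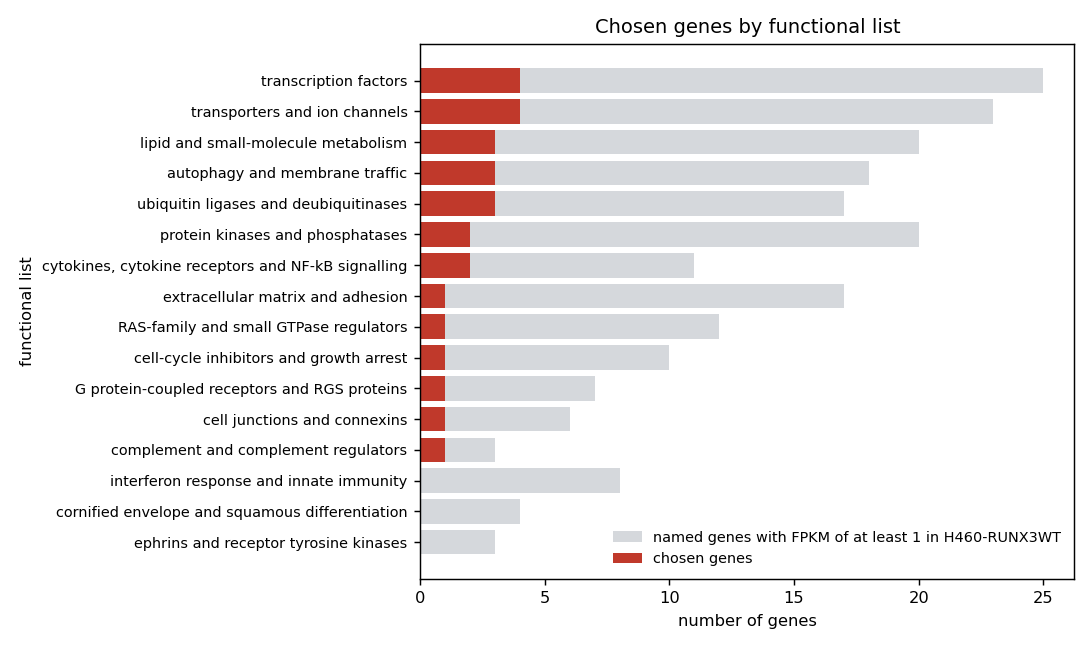
Number of named genes with FPKM of at least 1 in H460-RUNX3WT (grey bars) and of chosen genes (red bars) in each of 16 functional lists. Transcription factors, with 4 of 25, and transporters and channels, with 4 of 23, hold the most chosen genes, and 3 lists hold none.

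The plot of functional lists shows that the 27 chosen genes on a list are spread over 13 lists, with at most 4 in any. No gene was chosen from the cornified envelope list, with 4 genes at FPKM of at least 1, from the ephrins and receptor tyrosine kinases, with 3, or from the interferon and innate immunity list, with 8, from which 1 gene that met the values was left out by name. The lists were written from gene names with earlier results of these data known, and their counts rest on genes of chromosome 1. The counts also depend on the scaling. Once the libraries were rescaled to the same FPKM sum, RLF, KCNK1, SLC22A15, RPS6KC1, IL6R and AK4 no longer met the values either. Transporters and channels then held fewer chosen genes than transcription factors.

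The other 25 genes were on no list. CCDC30, which encodes a coiled-coil protein, had the largest change of the 52 genes, and its FPKM in H460-RUNX3WT was 0.0564, 0.125 and 21.3. In H460-Tam it was at 0.0826 or less and in H460-RUNX3MT at 0.0363 or less. IGFN1, a protein of immunoglobulin and fibronectin domains known from skeletal muscle, was at 2.74, 16.1 and 71.9 in H460-RUNX3WT and at 0.436, 1.28 and 0.215 in H460-Tam. Of the 52 genes it differed most between these lines at 0 h, by 2.52 on the log2 scale. HSPA6, a stress-inducible heat shock protein, was at 0.399, 0.490 and 3.25 in H460-RUNX3WT and between 0.354 and 1.06 in H460-Tam. ZC3H11A, which takes part in mRNA export, was at 42.4, 51.5 and 172 in H460-RUNX3WT and between 38.9 and 45.8 in H460-Tam. RBM15, of the RNA methylation machinery, was at 5.73, 5.60 and 25.7, against 5.39, 5.54 and 8.30 in H460-Tam. SWT1, an endoribonuclease, was at 0.714, 1.14 and 7.04 in H460-RUNX3WT and between 0.812 and 1.12 in H460-Tam. AGO3, an Argonaute protein, was at 2.28, 3.47 and 6.79, and DIEXF, a nucleolar protein of ribosome assembly also called UTP25, at 8.47, 10.9 and 28.9. In H460-Tam they lay between 1.96 and 2.15 and between 5.95 and 8.22. ZBED6, a factor derived from a transposon, TMEM167B, a Golgi membrane protein, ZDHHC18, a palmitoyltransferase, and NBPF16 had changes of 1.77, 1.65, 1.58 and 1.68. The 6 non-coding entries or pseudogenes were LOC284648, LOC643837, LOC339524, LOC646626, MATN1-AS1 and RPS10P7, with changes of 3.29, 2.45, 2.27, 1.74, 1.85 and 2.56. LOC643837 reached FPKM 10.1 at 16 h and the other 5 between 1.66 and 4.60.

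For some entries the reads may belong to another gene. ZBED6 lies within ZC3H11A on the same strand, and both are listed at the same locus. In the annotation 95.7% of the exon bases of ZBED6 are exon bases of ZC3H11A as well. In turn, 87.3% of the exon bases of ZC3H11A are exon bases of ZBED6, so the limit holds for the values of both. NBPF16, HSPA6 and SEC22B have close paralogs or pseudogenes, and RPS10P7 is a processed pseudogene. Reads from near-identical copies cannot be assigned with certainty. LGALS8 shares 22.1% of its exon bases with HEATR1 and MATN1-AS1 shares 20.8% with MATN1, both on the opposite strand. The libraries were made with a stranded kit, but whether strand was used in the counting is not given in the sources used here. Of the 52 genes 48 were found in the annotation, all on the forward strand. The strand of the other named genes was not counted. YOD1, on the opposite strand to PFKFB2, is not among the named genes. The strand is therefore not shown to be a trait of the chosen genes, since it may follow from the list of symbols.

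The choice did not use the change at 8 h, though the filter on FPKM took in that library. At 8 h 45 of the 52 genes stood higher than at 0 h in H460-RUNX3WT, or 86.5%. The share of all genes expressed in that line was 50.3%. After the libraries were rescaled by their FPKM sums, 43 of the 52 stood higher. The median change of the 52 was 0.63, and that of all genes expressed in that line was 0.0035. A change of at least 1 was seen for 15 of the 52, or 28.8%, against 5.1% of all genes, and a change of at least 1.5 for 6, or 11.5%, against 2.15%. The 6 were G0S2 at 5.50, IGFN1 at 2.54, PFKFB2 at 2.26, RPS10P7 at 1.96, C1orf51 at 1.86 and PRDM16 at 1.82. RPS10P7 was at FPKM 0.740, 3.02 and 4.60. Of the 6, 4 were under FPKM 1 at 0 h, all but IGFN1 and PFKFB2, and with a pseudocount of 1 the count at or above 1.5 was 3, so it rests in part on low values. The 1147 genes without a symbol that met the same values had medians of 0.73 at 8 h and 2.41 at 16 h. The rule keeps their 16 h changes at 1.5 or more, and their 8 h changes share the 0 h library it used. They are therefore no independent check of the course. A low value in the shared 0 h library would raise both changes, so the share at 8 h is not independent of the choice.

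The other 7 genes were not higher at 8 h. LOC339524 was at -2.78, with FPKM 0.438, 0.0212 and 2.30, and RASSF5 at -1.29. Both are low and rest on few reads. IL6R was at -0.64, ZBED6 at -0.31, LOC646626 at -0.21, TBX19 at -0.19 and RBM15 at -0.031.

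From 8 to 16 h 51 of the 52 genes went up in H460-RUNX3WT, with a median change of 1.68. The change was at least 1 for 43 of them, or 82.7%, against 14% of all expressed genes. This interval uses the 16 h library that the choice rests on. For 42 of the 52 genes the change from 8 to 16 h was larger than that from 0 to 8 h, and the median gene had 25.3% of its log2 change at 8 h. SLC25A33, LMO4 and ZDHHC18, with 65.6%, 69.3% and 67.0%, were among those that had most of it by then. DYRK3, HSPA6, PHF13 and OTUD3, with 12.4%, 9.26%, 2.95% and 5.65%, had little.

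In H460-Tam cells the chosen genes had a median change of 0.13 at 8 h and 0.014 at 16 h, where all expressed genes had 0.0033 and 0.020. The rule limits the 16 h value. But 13 of the 52 genes stayed under FPKM 1 in every H460-Tam library, so shares are given for the 39 that were expressed in that line. At 8 h 24 of the 39 stood higher, or 61.5%, against 50.6% of all expressed genes, and 31 lay within 0.5 of 0, or 79.5%, against 87.6%. Changes within 0.5 of 0 were seen for 32 of the 39 at 16 h, or 82.1%, against 83.4%. A change of at least 1.5 was seen for 0 of the 39 at either time, against 0.582% of all expressed genes at 8 h and 0.907% at 16 h. Among the 13, G0S2 (FPKM 0.0766 to 0.458) had such a change at 8 h. Other chosen genes past 1 at 8 h in H460-Tam were IGFN1 at 1.45, DRAXIN at 1.19, LOC646626 at 1.12 and PFKFB2 at 1.02, and of these PFKFB2 alone reached FPKM above 1.5.

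**Figure D4:**
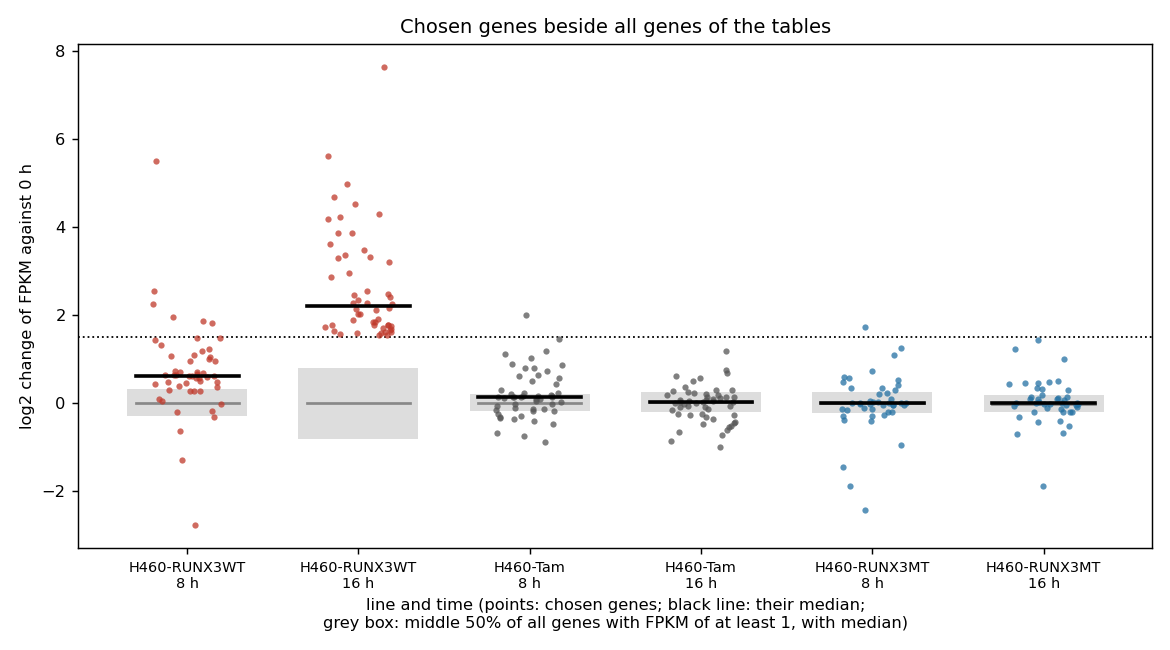
Log2 change against 0 h of the same line for the chosen genes (points, with their median as a black line) in each line and time, beside the interquartile range of all genes expressed in the line (grey box, with their median). The dotted line marks 1.5. The medians of the chosen genes are 0.63 and 2.2 in H460-RUNX3WT and between -0.0054 and 0.13 in the other lines.

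In H460-RUNX3MT cells, whose libraries were not used for the choice, the 44 matched genes had a median change of -0.0030 at 8 h and -0.0054 at 16 h. All genes expressed in that line had medians of 0.0048 and -0.011. The sign of such small medians changed with the processing. At 16 h 0 of the 44 genes had a change of at least 1.5, against 1.25% of all genes of the table, and at 8 h 1 had, against 1.14%. Of the 44 genes 34 were expressed in H460-RUNX3MT. Of these 0 had a change of at least 1.5 at 16 h and 1 at 8 h, against 0.457% and 0.316% of all genes with that level. With so few genes past 1.5 in the table, a count of 0 or 1 among 34 or 44 says little. Changes within 0.5 of 0 were seen for 27 of the 34 genes at 8 h and for 30 at 16 h, or 79.4% and 88.2%, and for 80% and 87.4% of all genes. Of the 34 genes 20 stood higher at 8 h and 18 at 16 h, or 58.8% and 52.9%, against 50.6% and 48.2% of all expressed genes. The plot of the chosen genes beside all genes shows the points of H460-RUNX3MT in and around the grey box, as in H460-Tam. Whether the lines differ was not tested, since each has 1 library per time.

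Of the 34 genes, 4 had a change of at least 1 in either direction at 8 h in H460-RUNX3MT, or 11.8% against 3.98% of all expressed genes, and 2 had one at 16 h, or 5.88% against 2.79%. IGFN1 was highest, with FPKM 3.72, 12.3 and 10.1, changes of 1.72 and 1.43. MFSD2A was at 0.774, 1.91 and 1.60, changes of 1.25 and 1.00, and AK4 at 4.94, 10.7 and 6.89, changes of 1.10 and 0.48. SWT1 was lower at 8 h, with 1.60, 0.547 and 1.47. IGFN1 and MFSD2A stood higher at 8 h in H460-Tam as well, with changes of 1.45 and 0.72, and at 16 h there they were at -0.87 and 0.37. RASSF5 was not matched by the identifier used, and under the one that the reference pairs with its symbol it stood at 0.0528, 0.203 and 0.0532 in that line.

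Both 0 h libraries entered the choice, as the starting points of the changes in H460-RUNX3WT and H460-Tam, so the distance between them is not independent of it. The median log2 difference of the chosen genes at 0 h was 0.043, against 0.0015 for all expressed genes, and 22 of the 52 were lower in H460-RUNX3WT. A distance of at least 1 was seen for 5 of the 52, or 9.62%, against 4.65% of all genes. IGFN1 and LOC339524 were above H460-Tam, by 2.52 and 1.79, and C1orf51, G0S2 and SLC22A15 below it, by 1.72, 1.34 and 1.07. Apart from IGFN1 these stood under FPKM 1 at 0 h. With the 0 h library of H460-Tam put in place of that of H460-RUNX3WT, an alternative chosen after seeing the data, 48 of the 52 genes still met the values. AK4, KCNK1, UAP1 and ZDHHC18 did not.

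The choice has a sharp edge. The genes nearest to it inside were ZBED6, which was 1.504 above H460-Tam, SEC22B, which was 1.524 above it, and AK4, which was 1.528 above it. Nearest outside were TMEM57 with a change of 1.496, GGPS1, which was 1.488 above H460-Tam, and NBPF9, which was 1.455 above it. GGPS1 went from FPKM 18.0 to 35.1 and 60.0 in H460-RUNX3WT, a course like that of chosen genes, and from 17.2 to 20.4 and 20.4 in H460-Tam. A further 25 named genes met both conditions on the change but had FPKM under 1. Of the 52 chosen genes 6 were under FPKM 2 in their highest H460-RUNX3WT library, and with a pseudocount of 1 in place of 0.05 34 of the 52 met the values.

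Several chosen genes were neighbours on chromosome 1. Of the 52 genes 20 had the start of another one within 500 kb, or 38.5%, and of 535 other named genes with FPKM of at least 1, 154, or 28.8%, had the start of a chosen gene that near. ZC3H11A and ZBED6, which share a locus, are 2 of the 20. Without a gene of the named list between them lay SPSB1 and SLC25A33, with starts 247 kb apart, LOC339524 and LMO4, 199 kb apart, and RASSF5 and DYRK3, 128 kb apart. PLEKHO1 and C1orf51 were 133 kb apart with 2 named genes between them, and MFSD2A and RLF 206 kb apart with 1. Genes without a symbol here were not counted, so these counts cover a part of each neighbourhood.

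A stretch with 4 of the chosen genes was chr1:206680879-207534311 of hg19, 853 kb from RASSF5 to CD55. Of its 10 named genes 6 had FPKM of at least 1 in H460-RUNX3WT. Genes of the reverse strand such as YOD1, which overlaps PFKFB2, have no symbol here and are left out of the stretch. RASSF5, DYRK3, PFKFB2 and CD55 were chosen, with changes of 2.47, 3.86, 3.48 and 4.53 at 16 h. IL24, between DYRK3 and PFKFB2, met the values and was left out by name. MAPKAPK2, next to DYRK3, was at FPKM 25.7, 25.4 and 64.0 in H460-RUNX3WT, a change of 1.31, and between 18.5 and 21.3 in H460-Tam. IL19, IL20, C4BPA and C4BPB were listed at 0 in all 6 libraries.

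**Figure D5:**
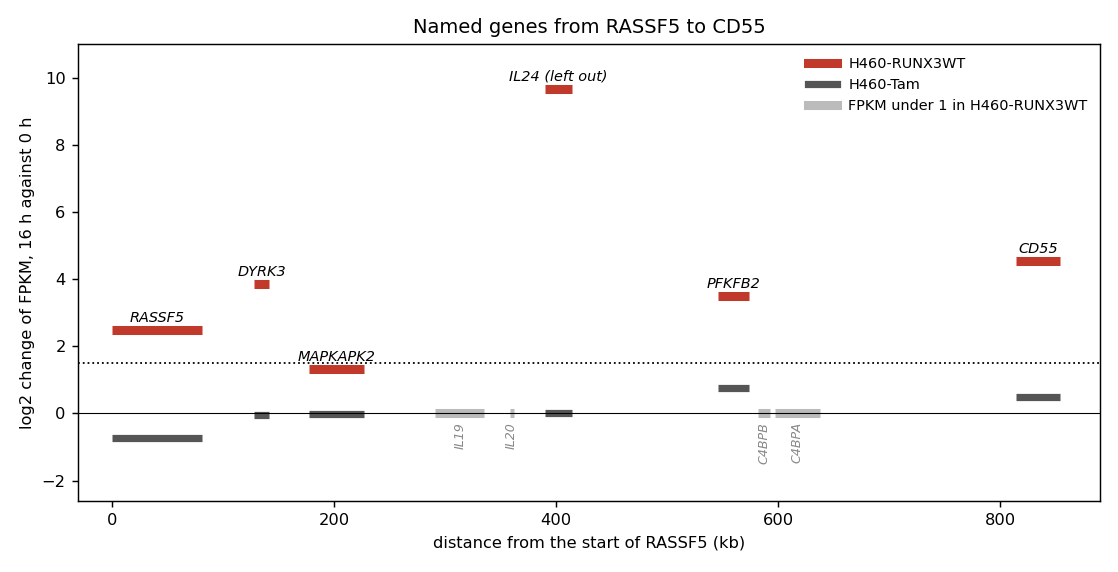
Log2 change of FPKM at 16 h against 0 h in H460-RUNX3WT (red) and H460-Tam (dark grey) of the 10 named genes from RASSF5 to CD55, each drawn over its locus as distance in kb from the start of RASSF5. Light grey marks 4 genes with FPKM under 1, and the dotted line marks 1.5. In H460-RUNX3WT 5 of the genes lie above the line and MAPKAPK2 lies at 1.31.

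The map of this stretch was drawn because it holds 4 of the 52 genes, and it was picked after the values were seen. It shows genes listed at 0 lying between genes that stood higher. In H460-Tam the 6 genes lay between -0.72 and 0.75.

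RUNX proteins bind TGTGGT and TGCGGT, so these 2 motifs were looked for on both strands of RefSeq promoter windows of GRCh38.p14, each with 250 bases before the start and 50 after it. Of the 52 genes 40 had at least 1 window. A motif was found for 13 of the 40 genes, or 32.5% (95% Wilson interval 20.1% to 48.0%), against 22.9% of all 27305 genes of the promoter table and 23.7% of 469 other named genes with FPKM of at least 1. By window it was 16 of 54, or 29.6%, against 19.6% of all 35116 windows. TGTGGT alone was found for 6 of the 40 genes, or 15%, against 15.6% of all genes and 13.2% of the other named genes. The interval for both motifs holds both background shares. A match is a run of letters and not a site shown to be bound. DYRK3, PLEKHO1, IGFN1 and G0S2 had no match in these windows, which says nothing of other regions.

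Among the genes with a match, CD55 had 2 in 18 bases, TGCGGT and TGTGGT, both read on the reverse strand, at positions -129 and -117 from the start. GPR137B had TGTGGT at -28 and SWT1 had it on the reverse strand at -100. The CD55 and GPR137B motifs lie in annotated exons of these genes themselves. They are shown because these 3 had the largest changes at 16 h among genes with a match before a start inside the listed locus. CCDC30 had a match too, but in a window 71.6 kb before its locus. The motifs are in capitals, and each line is the forward strand of hg19 from 5′ to 3′, found by matching the RefSeq sequence to that build at chr1:207494888-207494917, chr1:236305799-236305828 and chr1:185126080-185126109.
CD55: cctctgACCGCAcctctgACCACAacaaac
GPR137B: cccagtgaatcaTGTGGTgccgggggagga
SWT1: cgttacgacgccACCACAaactgcgcagaa

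Longer stretches of 250 bases up to the start are shown for 4 genes. These stretches hold no annotated exon bases, and that of PLEKHO1, which has more than 1 window, lies within its listed locus. RASSF5 and DIEXF have TGCGGT on the forward strand, in capitals. IGFN1 and PLEKHO1 have neither motif. They were picked for their large changes of 4.69 and 4.22, so a comparison of changes between these genes shows nothing about the motif. In hg19 the stretches lie on the forward strand at chr1:206680614-206680863, chr1:210001067-210001316, chr1:201159702-201159951 and chr1:150122537-150122786.
RASSF5: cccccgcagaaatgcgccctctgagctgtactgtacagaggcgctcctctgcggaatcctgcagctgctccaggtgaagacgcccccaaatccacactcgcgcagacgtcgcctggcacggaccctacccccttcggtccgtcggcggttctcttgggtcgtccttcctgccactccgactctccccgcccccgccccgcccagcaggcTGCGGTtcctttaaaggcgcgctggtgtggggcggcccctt
DIEXF: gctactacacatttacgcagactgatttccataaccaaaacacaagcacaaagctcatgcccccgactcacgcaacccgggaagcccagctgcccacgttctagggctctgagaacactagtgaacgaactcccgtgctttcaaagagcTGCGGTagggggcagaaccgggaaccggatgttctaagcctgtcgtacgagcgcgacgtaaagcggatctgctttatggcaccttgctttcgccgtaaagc
IGFN1: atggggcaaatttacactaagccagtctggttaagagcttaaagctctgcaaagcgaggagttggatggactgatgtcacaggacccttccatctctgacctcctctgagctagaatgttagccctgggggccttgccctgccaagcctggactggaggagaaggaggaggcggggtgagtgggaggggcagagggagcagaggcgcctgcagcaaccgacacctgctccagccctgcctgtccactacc
PLEKHO1: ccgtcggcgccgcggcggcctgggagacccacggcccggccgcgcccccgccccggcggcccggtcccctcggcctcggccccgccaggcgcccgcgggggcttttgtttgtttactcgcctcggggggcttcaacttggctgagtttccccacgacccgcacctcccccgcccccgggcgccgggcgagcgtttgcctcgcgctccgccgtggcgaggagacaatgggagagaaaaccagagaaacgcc
The RASSF5 motif lies at -41 and the DIEXF motif at -101 from the start. RASSF5 went from FPKM 0.256 to 1.64 and DIEXF from 8.47 to 28.9 between 0 and 16 h in H460-RUNX3WT.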

How the data were processed

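The values are FPKM in the 2 tables that the authors deposited. The submitters' processing notes name STAR 2.5.0, Cufflinks, Cuffdiff 2.2.1 and hg19. Symbols came from the study's supplementary list, and genes were matched between tables by Ensembl identifier. The work was done with Python 3.11.15, numpy 2.4.6, pandas 2.3.3, statsmodels 0.14.6 and matplotlib 3.10.9. Relative depth, read from the smallest steps between low FPKM values, was 0.962 to 1.17 times the 0 h library of H460-Tam and, in H460-RUNX3MT, 0.99 times its own 0 h library. Genes were named in the text if they were on a functional list or had 1 of the 10 largest changes at 16 h, the 5 highest FPKM at 16 h, the 5 largest changes at 8 h or a change of at least 1 in H460-RUNX3MT, or lay nearest to the limits of the choice. The other chosen genes were named to account for all 52, and further genes were named after their values were seen. Other pseudocounts, scalings, thresholds and filters were tried. The members and lists were chosen with earlier results of these data known. The selection was also run on simulated tables with known answers.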

Additional observations from a re-analysis of the deposited data

Results flagged for a closer look

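Among the chosen genes matched in both tables by the identifier used, only G0S2 and C1orf51 had changes of at least 1 in opposite directions in the lines with wild-type and mutant RUNX3 at the same time. G0S2 had a change of 5.50 at 8 h and 4.99 at 16 h in H460-RUNX3WT and of -1.89 at both times in H460-RUNX3MT, where it went from FPKM 0.135 to 0. C1orf51 had a change of 1.86 at 8 h in H460-RUNX3WT and of -2.44 in H460-RUNX3MT, where it went from 0.616 to 0.0730, but at 16 h the changes were 4.18 and -0.19, so the fall in H460-RUNX3MT was seen at 8 h only. Smaller opposite changes at 8 h were seen for others, such as PRDM16, at 1.82 and -0.95, and SWT1, at 0.64 and -1.47. RASSF5, found in the table of H460-RUNX3MT only under another identifier, was also past 1 in opposite directions at 8 h, with a change of -1.29 in H460-RUNX3WT and FPKM 0.0528 at 0 h and 0.203 at 8 h in H460-RUNX3MT. The FPKM of G0S2, C1orf51, PRDM16 and RASSF5 in H460-RUNX3MT stayed under 1. The differences were not tested, because each line has 1 library per time.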

How the results depend on the processing

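No paired analysis and no leaving out of replicates was possible because there is 1 library per condition. At 16 h, where the choice fixes the direction, the median of the chosen genes in H460-RUNX3WT was 1.65 with a pseudocount of 1, 1.92 with 0.5 and 1.71 with FPKM sums made equal, against 2.2. At 8 h it was above 0 under the alternatives run, with 0.43, 0.50 and 0.45 under these, against 0.63. It was 0.61 with rescaling by the median ratio, which shifted this change by only -0.02 and so checks little. It was 0.62 both with no filter and with FPKM of at least 5. Without ZBED6, NBPF16, HSPA6 and SEC22B, an alternative chosen after seeing the data, these medians were 2.26 and 0.64.

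The number of genes that met the values, 52 as reported, was 34 with a pseudocount of 1, 27 with the sum rescaling, 88 and 28 with thresholds of 1 and 2, and 2 with 8 h in place of 16 h. The genes at or above 1.5 at 8 h were 3 with a pseudocount of 1, against 6. The share of genes with a motif in a promoter window was 15% with TGTGGT alone, against 32.5%.

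Medians near 0 changed sign. In H460-Tam at 16 h the median was 0.011 and 0.012 with pseudocounts of 1 and 0.5, 0.013 with the median ratio and -0.065 with the sum rescaling. In H460-RUNX3MT at 16 h it was -0.0019 and -0.003 with the pseudocounts, 0.085 with the sum rescaling, 0.0063 with the median ratio, 0 with no filter and 0.0039 with FPKM of at least 5. At 8 h it was 0.00033 and 7.9e-05 with the pseudocounts, 0.029 with the sum rescaling and -0.012 with the median ratio. Over the chosen genes expressed in that line, also chosen after seeing the data, it was 0.015 at 16 h and 0.011 at 8 h. The count at or above 1.5 at 16 h there was 1 with the sum rescaling, against 0. The cause was not tested. Of 52 alternative values 9 changed sign, 26 others differed from the reported median, share or count, the counts by more than 1.5 times, and 17 were counts within 1.5 times the reported one or, for 1 median, equal to it. Low FPKM rests on few reads, and the tables give no counts, so the error of a value is unknown.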
